A study of Mus musculus with 10 samples.

Results

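The NF-κB subunits and their feedback inhibitors were followed in mouse bone-marrow-derived macrophages (BMDMΦs) under 5 conditions. The set has 10 named genes, taken by symbol from the array's annotation: the subunits Nfkb1, Nfkb2, Rel, Rela and Relb, the cytoplasmic inhibitors Nfkbia and Nfkbie, the nuclear IκB proteins Nfkbiz and Bcl3, and the ubiquitin-editing inhibitor Tnfaip3. Of these, 9 were each measured by 1 probe set among the 22206 of the array, and Nfkb1 was not matched to a probe set and is not analysed here.

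The study asked how medium conditioned by cancer-associated fibroblasts (CAFs) with or without the transcription factor Snail1 alters macrophages. Marrow of male C57Bl/6J mice aged 8 to 12 weeks was differentiated into BMDMΦs with macrophage colony-stimulating factor from conditioned medium of a fibroblast line, and the cells were then treated for 48 h. WT CAF CM was medium conditioned for 24 h by serum-starved Snai1 WT CAFs from PyMT mammary tumors, and KO CAF CM was medium conditioned in the same way by Snai1 KO CAFs. The other stimuli were IL4 (10 ng/mL), a cytokine of alternative activation, and IFNγ (100 units/mL), a cytokine of classical activation, and not stimulated macrophages received complete medium. Each condition has 2 arrays. The deposited descriptions attach the wild-type or knockout state to the macrophages, whereas the sample titles and the study's methods attach it to the CAFs that conditioned the medium, and the arrays of macrophages cannot check the deletion in the CAFs. No array held macrophages in serum-free medium that no cell had conditioned, so an effect of the starved medium itself cannot be told apart from that of the CAF products. Whether the 2 arrays per condition stem from different animals or dishes is not given, so the p-values measure the spread between these arrays, which may be technical.

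NF-κB is a family of dimeric transcription factors held in the cytoplasm by IκB proteins. Signals from Toll-like receptors, the IL1 receptor or TNF receptors activate the IκB kinase (IKK), IκB is degraded, and the freed dimers enter the nucleus, where they bind κB sites and switch on cytokine, chemokine and survival genes. Among the genes they switch on are their own inhibitors: IκBα (Nfkbia) pulls dimers back out of the nucleus, and the Tnfaip3 protein removes the ubiquitin chains on which the kinases assemble. IκBζ (Nfkbiz) and Bcl3 act differently, since they bind NF-κB on chromatin and can raise or lower the transcription of selected targets.

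The promoters of members are shown because κB sites near the start are where feedback by NF-κB on these genes would act. Promoters were taken from RefSeq on GRCm38.p6 as 250 bases before to 50 bases after each annotated start, with +1 the first transcribed base, and 7 of the 10 genes, with 10 promoters in all, were in the table. Nfkb1, Relb and Nfkbiz were not. Capitals mark matches to the 10-base κB consensus on either strand (a run of G, a purine, any bases, pyrimidines and a run of C), with overlapping matches joined. The first 3 sequences are whole promoters, of Nfkbia at chr12:55492598-55492897 (minus strand), of Tnfaip3 at its first annotated start at chr10:19015361-19015660 (minus strand) and of Nfkb2 at its first start at chr19:46304487-46304786 (plus strand). The last 3 are windows around the match, of Bcl3 at chr7:19822719-19822778 (minus strand), of Nfkbie at chr17:45555569-45555628 (plus strand) and of Rel at chr11:23771026-23771086 (minus strand).
Nfkbia: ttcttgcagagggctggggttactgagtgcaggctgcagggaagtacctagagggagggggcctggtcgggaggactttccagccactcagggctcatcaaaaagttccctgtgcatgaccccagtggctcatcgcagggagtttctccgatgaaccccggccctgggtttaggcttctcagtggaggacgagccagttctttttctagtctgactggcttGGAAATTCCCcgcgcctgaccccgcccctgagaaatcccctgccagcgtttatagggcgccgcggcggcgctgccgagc
Tnfaip3: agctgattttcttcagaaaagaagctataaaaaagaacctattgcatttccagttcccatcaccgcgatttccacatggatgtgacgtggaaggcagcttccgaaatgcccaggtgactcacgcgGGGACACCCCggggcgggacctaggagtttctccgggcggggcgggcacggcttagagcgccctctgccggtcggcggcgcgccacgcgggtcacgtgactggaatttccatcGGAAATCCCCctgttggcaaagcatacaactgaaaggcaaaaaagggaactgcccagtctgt
Nfkb2: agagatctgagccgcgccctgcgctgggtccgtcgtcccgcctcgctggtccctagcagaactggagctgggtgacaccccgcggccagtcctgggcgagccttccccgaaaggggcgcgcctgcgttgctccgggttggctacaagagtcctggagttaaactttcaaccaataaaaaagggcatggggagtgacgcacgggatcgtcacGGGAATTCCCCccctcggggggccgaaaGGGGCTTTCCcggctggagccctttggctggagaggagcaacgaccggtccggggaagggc
Bcl3: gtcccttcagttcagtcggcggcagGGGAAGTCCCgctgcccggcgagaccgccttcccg
Nfkbie: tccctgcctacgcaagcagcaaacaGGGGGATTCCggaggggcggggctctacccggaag
Rel: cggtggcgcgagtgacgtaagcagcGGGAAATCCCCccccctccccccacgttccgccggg

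A κB match was present in 6 of these 7 genes and in 8 of their 10 promoters, and 8.46% of 32841 promoters held one, those of the 32851 in the table without the 10 that contain letters other than A, C, G and T. In Nfkbia the match lay at -29 to -20, in Bcl3 at +3 to +12 and in Nfkbie at -106 to -97. Nfkb2 and Tnfaip3 each held 2 stretches at their first start, at -39 to -29 and -11 to -2 in Nfkb2 and at -125 to -116 and -12 to -3 in Tnfaip3. The second and the third start of Nfkb2 shared the stretch GGGACTTTCC, since their windows overlap, and the second start of Tnfaip3 held none. Rel held 1 stretch, at -92 to -82, and Rela was the gene with none in its window. The interferon-gamma-activated site TTCNNNGAA, searched on both strands, was found in 1 of the 10 promoters, that of the first start of Nfkb2, and in 8.3% of all promoters, and it overlapped no κB stretch. The cyclic AMP response element TGACGTCA was found in 0 of the 10 and in 1.79% of all. These matches describe letters in the windows and were not measured as binding.

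**Figure D1:**
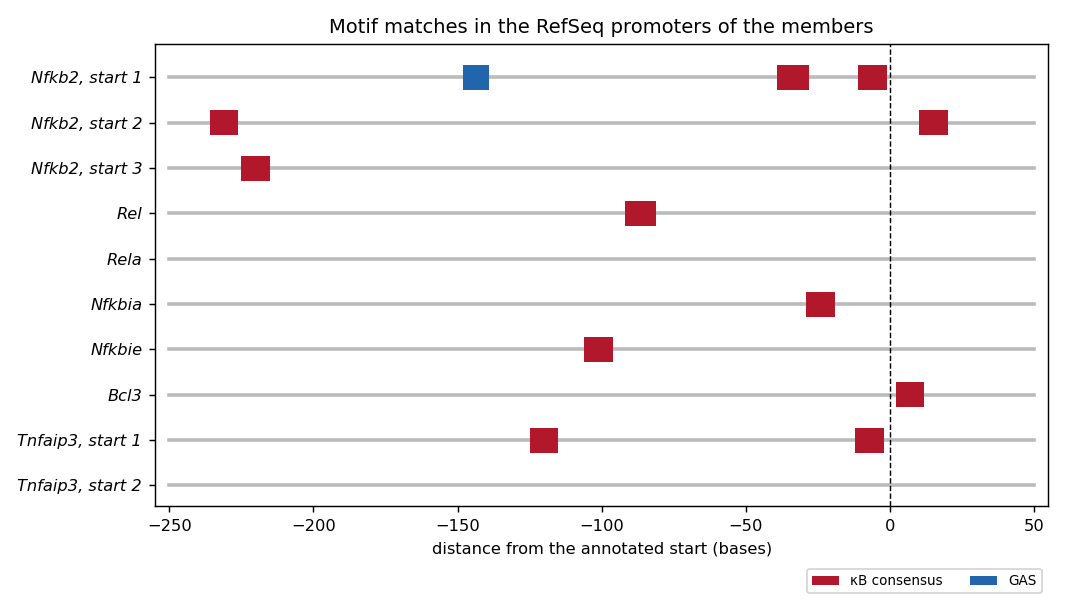
Positions of κB consensus matches (red) and interferon-gamma-activated sites (blue) in the 10 RefSeq promoters of 7 member genes, as distance in bases from the annotated start (dashed line). Of the 10 promoters, 8 hold a κB match, and those of Rela and of the second Tnfaip3 start hold none.

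Both CAF media raised the inhibitors and Nfkb2 together. In WT CAF CM, 6 of the 9 measured members rose and 0 fell against not stimulated macrophages, where 4.08% of all probe sets rose and 4.47% fell, and the members' median difference was 1.50 on the log2 scale against -0.03 over all probe sets. In KO CAF CM, 6 rose and 0 fell, with backgrounds of 6.83% and 8.0% and a median difference of 1.64 against -0.01 over all. The 6 were Nfkb2, Nfkbia, Nfkbie, Nfkbiz, Bcl3 and Tnfaip3 in both media. The comparisons of the 4 stimuli share the not stimulated arrays. A call is an adjusted p under 0.05 in limma (Benjamini-Hochberg over all probe sets), levels are log2 signals that hold only within a gene, and in bulk RNA a change in the number of cells of a type and a change in RNA per cell cannot be told apart.

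IL4 and IFNγ did not raise any member past the threshold. With IL4, 3 members fell (Nfkbia, Nfkbiz and Bcl3) and 0 rose, against 2.38% of all probe sets that fell and 1.66% that rose, with a median of -0.61 over the members against 0 over all. With IFNγ, 1 fell (Nfkbia) and 0 rose, against 6.68% that fell and 5.38% that rose, with a median of -0.34 against -0.01 over all.

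**Figure D2:**
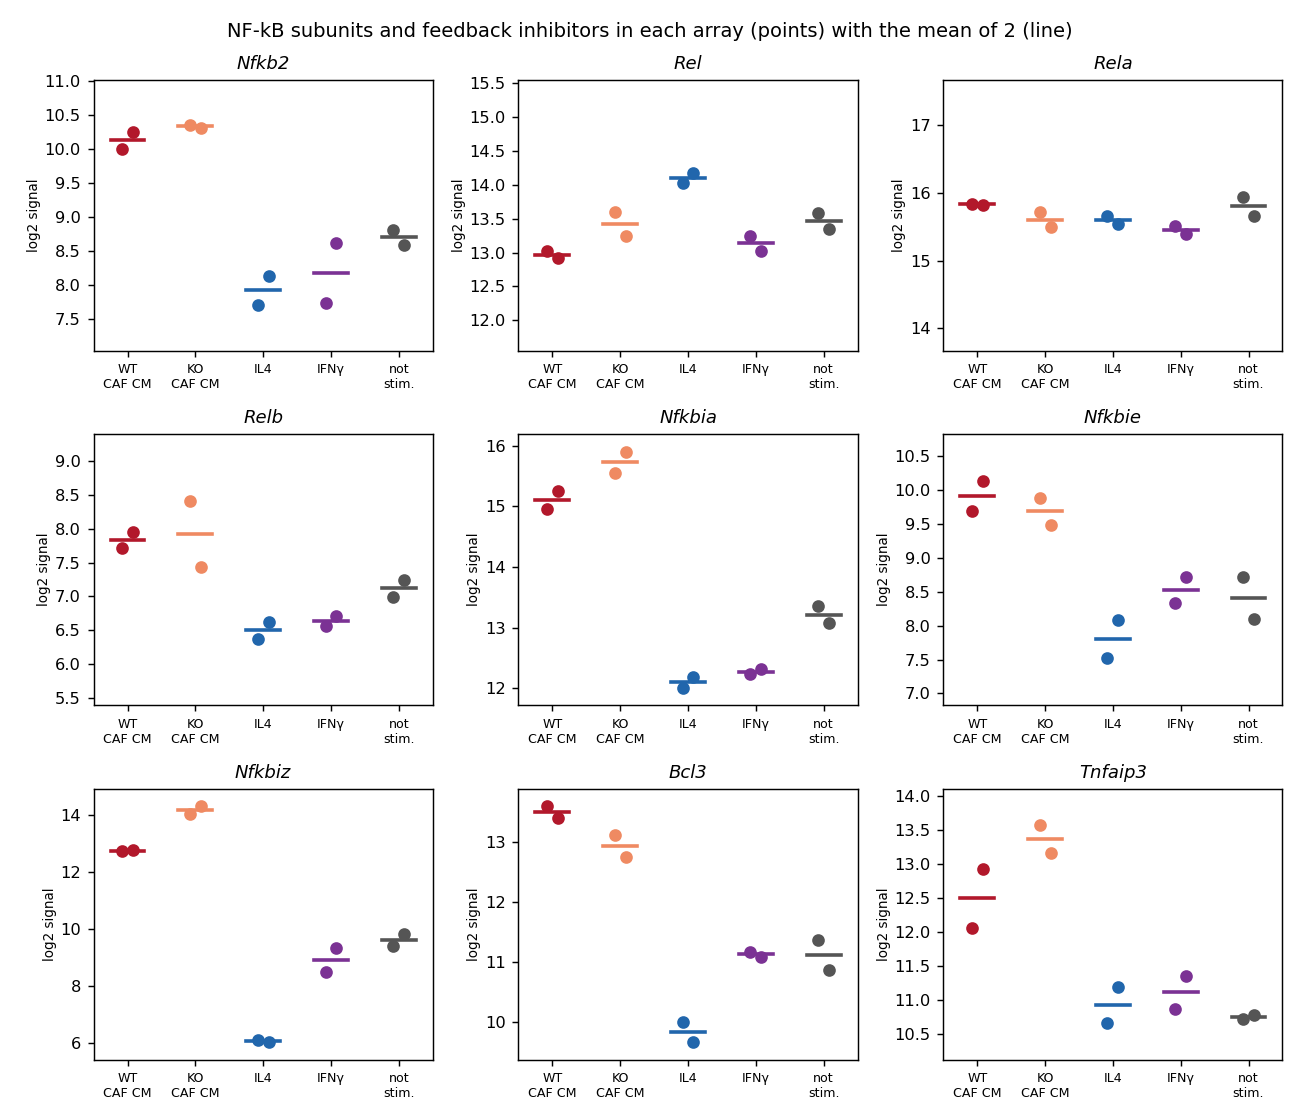
Log2 signal of each measured member in every array (points) with the mean of the 2 arrays of a condition (line). Each panel has its own axis, of at least 4 log2 units. Nfkbiz spans from 6.02 in an IL4 array to 14.32 in a KO CAF CM array, whereas Rela stays between 15.40 and 15.94.

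Rela and Rel encode subunits with a transactivation domain, RelA and c-Rel. Rela gave log2 signals of 15.84 and 15.82 in WT CAF CM, 15.72 and 15.49 in KO CAF CM, 15.66 and 15.54 in IL4, 15.51 and 15.40 in IFNγ, and 15.94 and 15.66 in not stimulated macrophages. The conditions lay close together, and no comparison passed the threshold, with adjusted p between 0.28 and 0.99 over 10 comparisons. The 95% interval of the Rela difference in WT CAF CM was -0.38 to 0.44, and in KO CAF CM -0.60 to 0.21. Rel was 13.02 and 12.92 in WT CAF CM, 13.60 and 13.25 in KO CAF CM, 14.03 and 14.18 in IL4, 13.24 and 13.03 in IFNγ, and 13.59 and 13.35 in not stimulated macrophages. Both IL4 arrays lay above every other array. Rel was higher in IL4 than in IFNγ by 0.97 (SE 0.20, adjusted p 0.0057) and lower in WT CAF CM than in IL4 by 1.14 on the log2 scale (difference -1.14, adjusted p 0.0023), and KO CAF CM was also below IL4 (difference -0.68, adjusted p 0.037). The last call was lost without KO CAF CM replicate 2 (-0.51, adjusted p 0.21), IL4 replicate 1 (-0.76, adjusted p 0.088) or IL4 replicate 2 (-0.61, adjusted p 0.17), and missed at an adjusted p of 0.051 without any 1 of the WT CAF CM or IFNγ arrays. That between IL4 and IFNγ was lost without IFNγ replicate 2 (0.87, adjusted p 0.062). Against not stimulated macrophages the IL4 difference of 0.64 did not pass (adjusted p 0.11), except with a trend in limma's variance and robust moderation (adjusted p 0.044).

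Nfkb2 and Relb encode the precursor p100 and the subunit RelB, the partners of the alternative NF-κB pathway. Nfkb2 was 10.01 and 10.26 in WT CAF CM, 10.35 and 10.32 in KO CAF CM, 7.70 and 8.13 in IL4, 7.73 and 8.62 in IFNγ, and 8.81 and 8.59 in not stimulated macrophages. All CAF CM arrays lay above all others, and 1 IFNγ array overlapped the not stimulated ones. Nfkb2 rose 2.7-fold in WT CAF CM (difference 1.44, SE 0.27, adjusted p 0.0062) and 3.11-fold in KO CAF CM (difference 1.64, adjusted p 0.0016). The call in WT CAF CM was lost without WT CAF CM replicate 2 (difference 1.31, adjusted p 0.061) or without not stimulated replicate 2 (1.33, adjusted p 0.057), and a call of lower Nfkb2 in IFNγ (-0.97, adjusted p 0.048) appeared without IFNγ replicate 2.

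Relb was 7.71 and 7.95 in WT CAF CM, 8.41 and 7.43 in KO CAF CM, 6.38 and 6.63 in IL4, 6.56 and 6.71 in IFNγ, and 6.99 and 7.25 in not stimulated macrophages. The CAF CM arrays were the highest and did not overlap the not stimulated ones, but the differences of 0.71 (WT CAF CM, adjusted p 0.17) and 0.80 (KO CAF CM, adjusted p 0.085) did not pass. The KO CAF CM pair was the most spread of all conditions for Relb (SD 0.69), and without KO CAF CM replicate 2 the KO CAF CM difference was 1.29 (adjusted p 0.0061). Relb was higher in both CAF media than in either cytokine, by 1.33 and 1.42 against IL4 and by 1.20 and 1.29 against IFNγ for WT and KO CAF CM in that order (adjusted p 0.0044 to 0.015). The WT CAF CM call against IL4 was lost without WT CAF CM replicate 2 (1.21, adjusted p 0.075) or IL4 replicate 1 (1.20, adjusted p 0.074), and that against IFNγ without WT CAF CM replicate 2 or either IFNγ array (1.08 to 1.27, adjusted p 0.062 to 0.11). The KO CAF CM call against IFNγ was lost without KO CAF CM replicate 1 (0.80, adjusted p 0.063) or IFNγ replicate 1 (1.21, adjusted p 0.064).

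Nfkbia, which encodes the classical inhibitor IκBα, separated every stimulus from the baseline. It was 14.95 and 15.26 in WT CAF CM, 15.55 and 15.90 in KO CAF CM, 12.01 and 12.18 in IL4, 12.23 and 12.32 in IFNγ, and 13.35 and 13.07 in not stimulated macrophages, with no overlap between conditions. Nfkbia rose 3.72-fold in WT CAF CM (difference 1.90, SE 0.20, adjusted p 0.00011) and 5.72-fold in KO CAF CM (difference 2.52, adjusted p 8.3e-06). It fell in IL4 (difference -1.12, adjusted p 0.0094) and in IFNγ (difference -0.94, adjusted p 0.0099). The IL4 call was lost without not stimulated replicate 1 (-0.97, adjusted p 0.10) or IL4 replicate 1 (-1.03, adjusted p 0.083), and the IFNγ call without not stimulated replicate 1 (-0.80, adjusted p 0.10) or IFNγ replicate 1 (-0.89, adjusted p 0.074).

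Nfkbie encodes IκBε, an inhibitor that acts on dimers with RelA or c-Rel. Its signals were 9.69 and 10.13 in WT CAF CM, 9.89 and 9.48 in KO CAF CM, 7.52 and 8.08 in IL4, 8.34 and 8.72 in IFNγ, and 8.72 and 8.10 in not stimulated macrophages. The CAF CM arrays lay above all others, which overlapped among themselves for IFNγ and no stimulus. The rise was 2.83-fold in WT CAF CM (difference 1.50, SE 0.28, adjusted p 0.0058) and 2.42-fold in KO CAF CM (difference 1.28, adjusted p 0.0093). Without WT CAF CM replicate 2 or not stimulated replicate 2 the first was not called (1.28 and 1.19, adjusted p 0.066 each), and without KO CAF CM replicate 1 or not stimulated replicate 2 the second was not (1.07, adjusted p 0.076, and 0.97, adjusted p 0.095).

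Nfkbiz, which encodes the nuclear protein IκBζ, had the widest range of the 9 members, with condition means 8.14 log2 units apart. It was 12.74 and 12.77 in WT CAF CM, 14.06 and 14.32 in KO CAF CM, 6.08 and 6.02 in IL4, 8.49 and 9.34 in IFNγ, and 9.39 and 9.84 in not stimulated macrophages. No 2 conditions overlapped. Nfkbiz rose 8.82-fold in WT CAF CM (difference 3.14, SE 0.27, adjusted p 1.8e-05) and 23.8-fold in KO CAF CM (difference 4.58, adjusted p 6.7e-07), and it was lower in IL4 (difference -3.57, adjusted p 1.6e-05). The IL4 signals lay close to the array medians of 5.57 to 5.71, a level where a silent gene cannot be told from a low one, so differences from IL4 are differences of signal and may understate those of RNA. The IFNγ difference of -0.70 did not pass (adjusted p 0.13), but it did without IFNγ replicate 2 (-1.13, adjusted p 0.022).

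Bcl3, the other nuclear IκB protein, binds homodimers of the small subunits. Its signals were 13.59 and 13.39 in WT CAF CM, 13.11 and 12.75 in KO CAF CM, 10.00 and 9.66 in IL4, 11.16 and 11.08 in IFNγ, and 11.36 and 10.86 in not stimulated macrophages. IL4 arrays were lowest and CAF CM arrays highest, and the IFNγ arrays lay between the 2 not stimulated ones. Bcl3 rose 5.21-fold in WT CAF CM (difference 2.38, SE 0.23, adjusted p 4.1e-05) and 3.53-fold in KO CAF CM (difference 1.82, adjusted p 2e-04), and it was lower in IL4 than in not stimulated macrophages (difference -1.28, adjusted p 0.0075) and than in IFNγ (difference -1.29, adjusted p 0.0021). The first of these IL4 calls was lost without not stimulated replicate 1 (-1.03, adjusted p 0.089) or IL4 replicate 2 (-1.11, adjusted p 0.072).

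Tnfaip3 encodes a ubiquitin-editing enzyme that ends signaling to IKK. It was 12.06 and 12.93 in WT CAF CM, 13.58 and 13.16 in KO CAF CM, 10.65 and 11.19 in IL4, 10.87 and 11.35 in IFNγ, and 10.71 and 10.78 in not stimulated macrophages. The CAF CM arrays stood above all others, and the IL4 arrays spanned the not stimulated ones. Tnfaip3 rose 3.36-fold in WT CAF CM (difference 1.75, SE 0.30, adjusted p 0.0032) and 6.17-fold in KO CAF CM (difference 2.63, adjusted p 0.00011). It was the inhibitor that IL4 did not bring below the baseline in its mean, with differences of 0.17 in IL4 (adjusted p 0.87, 95% interval -0.49 to 0.84) and 0.36 in IFNγ (adjusted p 0.57, 95% interval -0.30 to 1.03).

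**Figure D3:**
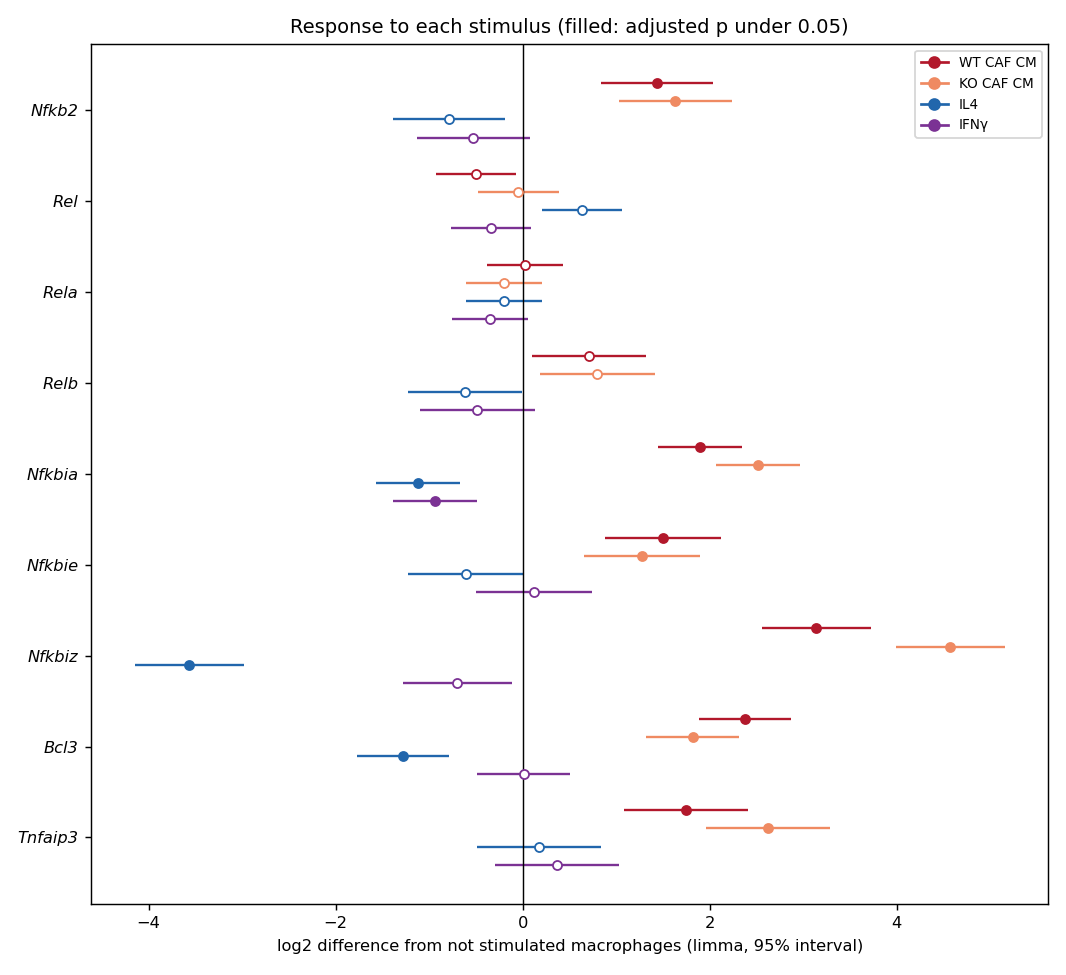
Log2 difference of each measured member from not stimulated macrophages under each of the 4 stimuli (limma estimate with its 95% interval). Filled points passed an adjusted p of 0.05. The filled points of both CAF media all lie above 0, at 1.28 or more, and the filled points of IL4 and IFNγ all lie below 0.

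Macrophages in WT CAF CM were then set against those in KO CAF CM, which asks whether Snail1 in the CAFs changes what the medium does to these genes. Nfkbiz was the 1 member of 9 called lower in WT CAF CM, and 0 were called higher, where 0.666% of all probe sets were lower and 0.694% higher, and the members' median difference was -0.20 against -0.01 over all. Nfkbiz was 2.7-fold lower in WT CAF CM (difference -1.44, SE 0.27, 95% interval -2.02 to -0.85, adjusted p 0.024). The call was lost when any 1 of the 4 CAF CM arrays was left out, while the difference stayed between -1.57 and -1.30: it was -1.42 without WT CAF CM replicate 1 (adjusted p 0.11) and -1.45 without the other WT array (adjusted p 0.10). It was -1.57 when KO CAF CM replicate 1 was dropped (adjusted p 0.074) and -1.30 when KO CAF CM replicate 2 was (adjusted p 0.15).

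The other members did not pass between the CAF media. Tnfaip3 and Nfkbia had lower signals in both WT CAF CM arrays than in both KO CAF CM arrays, with differences of -0.88 (95% interval -1.54 to -0.21, adjusted p 0.28) and -0.62 (95% interval -1.07 to -0.17, adjusted p 0.25). Bcl3 lay the other way, at 0.56 (95% interval 0.07 to 1.06, adjusted p 0.39). For Nfkb2 and Nfkbie the intervals of -0.80 to 0.40 and -0.40 to 0.85 included 0, and they leave room for differences of either sign.

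**Figure D4:**
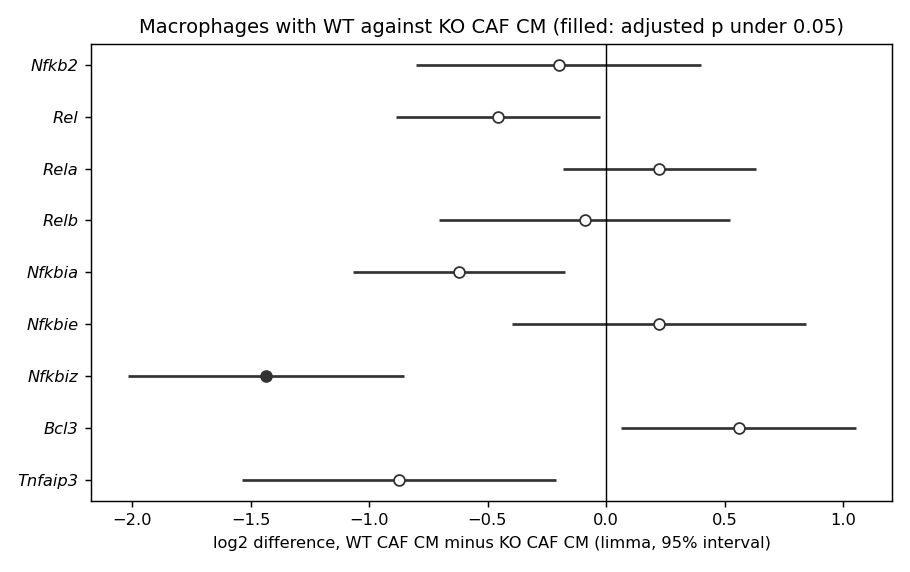
Log2 difference between macrophages in WT CAF CM and in KO CAF CM for each measured member (limma estimate with its 95% interval). Nfkbiz, at -1.44, is the filled point that passed an adjusted p of 0.05, and Bcl3 at 0.56 and Tnfaip3 at -0.88 lie on opposite sides of 0 without passing.

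Ordered by condition mean, KO CAF CM ranked first and WT CAF CM second for Nfkb2, Relb, Nfkbia, Nfkbiz and Tnfaip3, and WT CAF CM ranked first for Nfkbie, Bcl3 and Rela. Of the neighbours at the top, KO and WT CAF CM differed past the threshold for Nfkbiz and not for the other 4. IL4 was the lowest condition for Nfkb2, Relb, Nfkbia, Nfkbie, Nfkbiz and Bcl3. IL4 was distinct from the condition just above it for Nfkbiz and Bcl3, and was not distinct from it for Nfkb2, Relb, Nfkbia and Nfkbie (adjusted p 0.34 to 0.88). Rel had IL4 at the top, and no 2 neighbours in its order differed past the threshold.

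Set directly against the cytokines, the CAF media stood apart for most members. Against IL4, 7 members were higher and 1 lower (Rel) in WT CAF CM, and likewise in KO CAF CM, where 11.0% and 14.8% of all probe sets were called in either direction. Against IFNγ, 7 were higher and 0 lower in each CAF medium, where 11.6% and 14.1% of all were called. Between the cytokines, IL4 was higher than IFNγ for Rel and lower for Nfkbiz (difference -2.87, adjusted p 1.7e-05) and Bcl3, 3 of 9 members against 12.0% of all probe sets. In WT CAF CM against IFNγ the 7 calls became 4 without WT CAF CM replicate 2 or without IFNγ replicate 1, where Relb, Nfkbie and Tnfaip3 did not pass.

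The rest of the pathway was read from lists written from general knowledge, but with earlier results of these data known. Their counts are a description and not an independent test. They stand against the shares of all probe sets given above for higher and lower calls (4.08% and 4.47% in WT CAF CM, 6.83% and 8.0% in KO CAF CM, 1.66% and 2.38% in IL4, 5.38% and 6.68% in IFNγ). For WT against KO CAF CM these shares were 0.694% and 0.666%. In lists this short, 1 or 2 calls are not read as a result about the list. Upstream, the IKK complex and the kinases above it had 12 of 17 listed genes measured, of which 2 rose in WT CAF CM and 3 in KO CAF CM, 2 fell in each of IL4 and IFNγ, and the others did not pass. Irak3, which encodes an inhibitory member of the IRAK kinase family that blocks signaling from Toll-like receptors, rose by 3.33 in WT CAF CM and 3.31 in KO CAF CM on the log2 scale (adjusted p 7.7e-07 and 5.3e-07) and was lower in IL4 (-1.49) and IFNγ (-1.76). Ikbke, encoding an IKK-related kinase, rose by 2.15 in WT CAF CM and 2.70 in KO CAF CM. Ikbkg, the regulatory subunit of IKK, was lower in IFNγ (-0.80, adjusted p 0.049), a call lost when any 1 of 8 of the 10 arrays was left out (adjusted p 0.065 to 0.24). Irak2, encoding a kinase downstream of Toll-like and IL1 receptors, was 11.61 and 11.77 in WT CAF CM and 13.09 and 13.00 in KO CAF CM, and was lower in WT CAF CM (difference -1.36, adjusted p 0.007), though not when the first array of WT CAF CM (-1.27) or that of KO CAF CM (-1.31) was left out (adjusted p 0.053 each). In KO CAF CM Irak2 rose by 1.41 over not stimulated macrophages, and in IL4 it was lower (-1.20), an IL4 call that missed at an adjusted p of 0.053 without not stimulated replicate 1 or IL4 replicate 2.

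Adaptors and ubiquitin ligases (18 of 19 measured) had 7 higher and 0 lower in each CAF medium, 1 higher and 2 lower in IL4, and 5 higher and 0 lower in IFNγ. Birc3, a ubiquitin ligase at TNF receptors, rose by 2.26 in WT CAF CM and 2.48 in KO CAF CM. Ticam2, an adaptor of Toll-like receptor 4, rose by 1.99 and 2.60 in the same media, and Traf1, an adaptor at TNF receptors, by 1.99 and 2.28. In IFNγ, Peli1, a ubiquitin ligase, rose by 1.98, Myd88, the shared adaptor of most Toll-like receptors, by 1.65, and Rnf31, the catalytic subunit of the linear ubiquitin ligase, by 1.31. Myd88 also rose in both CAF media, by 1.20 in WT CAF CM and 1.21 in KO CAF CM, and so did Peli1, by 0.71 (adjusted p 0.036) and 1.10, the first of them a call lost without any 1 of the WT CAF CM, not stimulated or IFNγ arrays (adjusted p 0.053 to 0.22). In IL4, Traf5, an adaptor at TNF receptors, rose by 2.83 (adjusted p 0.0014), while Myd88 (-0.90) and Peli1 (-0.77) were lower. The Myd88 call in IL4 was lost without either not stimulated array or IL4 replicate 1 (adjusted p 0.11 to 0.21), that of Peli1 with any 1 of 8 arrays left out (adjusted p 0.05 to 0.23), and that of Traf1 in WT CAF CM without not stimulated replicate 2 (adjusted p 0.054). Without WT CAF CM replicate 2 or not stimulated replicate 2, 4 genes of this list were called higher in WT CAF CM, and without either IFNγ array or not stimulated replicate 2, 3 were in IFNγ.

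Deubiquitinases and other brakes (15 of 16 measured) had 3 higher and 1 lower in WT CAF CM, 4 higher and 1 lower in KO CAF CM, 0 higher and 2 lower in IL4, and 1 higher and 3 lower in IFNγ. Tnip1, whose protein works with that of Tnfaip3, rose by 3.17 in WT CAF CM and 3.44 in KO CAF CM and was lower in IL4 (-0.97) and IFNγ (-1.07). Zc3h12a, which encodes a ribonuclease that degrades inflammatory mRNAs, rose by 3.01 in WT CAF CM and 3.22 in KO CAF CM. N4bp1 rose by 2.19 in WT CAF CM and 1.31 in KO CAF CM, and Tnip3 by 1.76 in KO CAF CM, with a difference of 0.74 in WT CAF CM that did not pass (adjusted p 0.064). Pdlim2, whose protein promotes the degradation of RelA, was lower in IL4 (-0.92), and in IFNγ the deubiquitinases Cyld and Otulin moved apart (1.08 and -1.38). The IL4 calls of Tnip1 and Pdlim2 were lost without either not stimulated array or IL4 replicate 1 (adjusted p 0.084 to 0.22), that of Pdlim2 also without IL4 replicate 2 (adjusted p 0.083), and the IFNγ call of Tnip1 without IFNγ replicate 2 (adjusted p 0.068), where 1 gene of the list was called lower in IFNγ. The 1 gene lower in WT CAF CM was not called without any 1 of the 4 arrays compared, and the 1 lower in KO CAF CM was not without replicate 2 of KO CAF CM or of the not stimulated arrays. Of the 3 other IκB proteins, Nfkbib, encoding IκBβ, rose by 0.91 in WT CAF CM (adjusted p 0.038) and 1.84 in KO CAF CM (adjusted p 0.00029), and Nfkbid and Nfkbil1 did not pass against not stimulated macrophages under any stimulus. The Nfkbib call in WT CAF CM was lost without either WT CAF CM array or not stimulated replicate 2 (adjusted p 0.14 to 0.26) or either IFNγ array (adjusted p 0.059).

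Receptors that reach NF-κB (19 of 20 measured) were split in direction: 5 higher and 1 lower in WT CAF CM, 7 and 3 in KO CAF CM, 1 and 3 in IL4, and 8 and 4 in IFNγ. Tlr1, which pairs with Tlr2 to sense bacterial lipoproteins, rose by 2.80 in WT CAF CM and 3.61 in KO CAF CM, and Nod2, a sensor of bacterial cell wall fragments, by 1.58 and 2.16. Both also rose in IFNγ, Tlr1 by 1.17 and Nod2 by 2.06, and Tlr1 rose by 0.87 in IL4 (adjusted p 0.046). Tlr2 rose by 1.38 in WT CAF CM and by 1 in KO CAF CM (adjusted p 0.045) and was lower in IL4 (-2.94) and in IFNγ (-1.96). In WT CAF CM the Nod2 call was lost without any 1 of the 4 arrays compared (adjusted p 0.063 to 0.15) and the Tlr2 call without WT CAF CM replicate 1 or either not stimulated array (adjusted p 0.071 to 0.11), and the receptors called higher in WT CAF CM numbered 1 without either not stimulated array, 2 without the second array of WT CAF CM and 3 without the first. Those called higher in KO CAF CM numbered 4 without KO CAF CM replicate 1, Tlr9 was not called lower in WT CAF CM without either array of that condition or not stimulated replicate 2 (adjusted p 0.073 to 0.17), and Tlr1 was not called in IL4 when any array other than IL4 replicate 1 was left out (adjusted p 0.057 to 0.27). The Tlr2 call in KO CAF CM was lost without any 1 of the KO CAF CM, not stimulated or IFNγ arrays (adjusted p 0.052 to 0.24). Cd14, the coreceptor of Toll-like receptor 4, was lower in IL4 (-3.58) and in IFNγ (-4.28) and higher in WT CAF CM (0.73) and KO CAF CM (0.78), calls lost without any 1 of the 4 arrays compared in WT CAF CM (adjusted p 0.082 to 0.13) and without KO CAF CM replicate 1 or not stimulated replicate 1 in KO CAF CM (adjusted p 0.053 and 0.063). Tlr9, a sensor of DNA, was higher in IFNγ (3.80) and lower in WT CAF CM (-1.11), KO CAF CM (-1.50) and IL4 (-1.81). Cd40, a TNF receptor family member that signals to both NF-κB pathways, was 8.93 and 8.61 in WT CAF CM and 11.44 and 10.60 in KO CAF CM (difference -2.25, adjusted p 0.02), and it rose by 3.55 in KO CAF CM and 4.60 in IFNγ against not stimulated macrophages. Its call between the CAF media was lost without either WT CAF CM array or KO CAF CM replicate 1 (adjusted p 0.062 to 0.13).

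NF-κB target genes (33 of 34 measured) had 21 higher and 2 lower in WT CAF CM and 23 higher and 2 lower in KO CAF CM, with medians of 2.37 and 2.94, 3 higher and 6 lower in IL4 (median -0.17), and 7 higher and 6 lower in IFNγ (median -0.05). The cytokine gene Il1b rose by 8.52 in WT CAF CM and 6.88 in KO CAF CM, and the chemokine genes Ccl5 by 7.38 and 6.94 and Cxcl3 by 7.07 and 8.02 in the same media. The 2 WT CAF CM arrays lay far apart for Ccl5 (13.67 and 16.94, SE of the difference 0.76) and Cxcl3 (12.14 and 14.61). The signal of the protease gene Mmp9 was higher by 7.68 in WT CAF CM and 8.13 in KO CAF CM, over not stimulated signals of 4.82 and 5.20, which lay below every array's median, where a silent gene cannot be told from a low one. In IFNγ the chemokine genes Cxcl10 (7.03) and Ccl2 (4.89) rose, as did Ptgs2 (6.51), which encodes the inducible cyclooxygenase. Ptgs2 and Ccl2 rose in the CAF media as well, Ptgs2 by 5.10 in WT CAF CM and 6.47 in KO CAF CM and Ccl2 by 5.16 and 4.29, and Cxcl10 rose by 2.01 in KO CAF CM. The Ccl2 call in KO CAF CM was lost without KO CAF CM replicate 2 (adjusted p 0.07) or not stimulated replicate 1 (adjusted p 0.073). In IL4, Ier3 rose (3.49), and Cxcl10 (-2.92) and the receptor gene Clec4e (-2.42) were lower. Ier3 and Clec4e rose in both CAF media, Ier3 by 4.41 in WT CAF CM and 3.02 in KO CAF CM and Clec4e by 5.88 and 6.38. Il1b was lower in IL4 (-2.27) and IFNγ (-1.62), calls lost without not stimulated replicate 1 (-1.995 and -1.35). The IL4 call was also lost without IL4 replicate 2 (-1.92), and the IFNγ call without IFNγ replicate 1 (-1.4). The Il1b signals in IL4 and IFNγ, 4.35 to 5.56, lay below every array's median, where a silent gene cannot be told from a low one. Between the CAF media, 4 targets were lower in WT CAF CM and 0 higher, where 0.666% of all probe sets were lower and 0.694% higher. The targets' median difference was -0.435 against -0.01 over all. Those called lower included Ccl4 (-2.15, adjusted p 0.033), Tnf (-2.09, adjusted p 0.039) and Bcl2a1d (-1.61, adjusted p 0.0056). Il1b and Ier3 were among the targets that lay the other way without passing. Il1b was 15.17 and 15.79 in WT CAF CM and 13.22 and 14.47 in KO CAF CM. Ier3 was 13.30 and 13.98 in WT CAF CM and 12.40 and 12.12 in KO CAF CM. Tnf was 13.71 and 14.17 in WT CAF CM and 16.18 and 15.87 in KO CAF CM. Against not stimulated macrophages Tnf rose in both media, by 2.635 in WT CAF CM and 4.72 in KO CAF CM, and by 2.97 in IFNγ. Bcl2a1d also rose in both media, by 1.325 in WT CAF CM and 2.935 in KO CAF CM. The calls of Ccl4 and Tnf between the CAF media were lost without either KO CAF CM array or WT CAF CM replicate 1 (adjusted p 0.11 to 0.22), and that of Tnf also without any 1 of the other WT CAF CM, not stimulated and IFNγ arrays (adjusted p 0.054 to 0.097). With either KO CAF CM array or WT CAF CM replicate 1 left out, 1 target was called lower in WT CAF CM, and with either IFNγ array left out, 2 were. Without not stimulated replicate 1, 3 targets were called lower in IL4 and 3 in IFNγ, as were 3 in IFNγ without IFNγ replicate 1, and without replicate 2 of the not stimulated or the IL4 arrays 1 target was called higher in IL4.

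Genes listed as needing IκBζ for their induction in macrophages (8 of 10 measured, several of them also among the targets above) had 5 higher in WT CAF CM and 6 higher in KO CAF CM, with medians of 4.83 and 4.86, and 0 lower. IL4 called 0 of the 8 and IFNγ 1, Ccl2. Lcn2, which encodes an iron-scavenging lipocalin, rose by 9.54 in WT CAF CM and 9.29 in KO CAF CM. Saa3, an acute-phase protein gene, rose by 8.67 and 8.40 in these media. Its signals there, 18.26 to 18.70, were close to the highest value of any probe set, 18.87, so that larger differences may not show. Ptges, the inducible prostaglandin E synthase gene, rose by 6.99 and 7.05, and its WT CAF CM arrays lay far apart (11.77 and 14.82). Between the CAF media the median of this list was 0, and 1 gene was called, the endothelin gene Edn1 (difference -2.30, adjusted p 0.021). Its call was lost without replicate 1 of WT CAF CM (-1.86) or replicate 2 of KO CAF CM (-1.87). Its WT CAF CM signals of 4.25 and 5.13 lay below every array's median, where a silent gene cannot be told from a low one. Whether the level of Nfkbiz bears on these genes was not tested. The Ccl2 call in IFNγ missed without IFNγ replicate 2 (3.69, adjusted p 0.052).

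**Figure D5:**
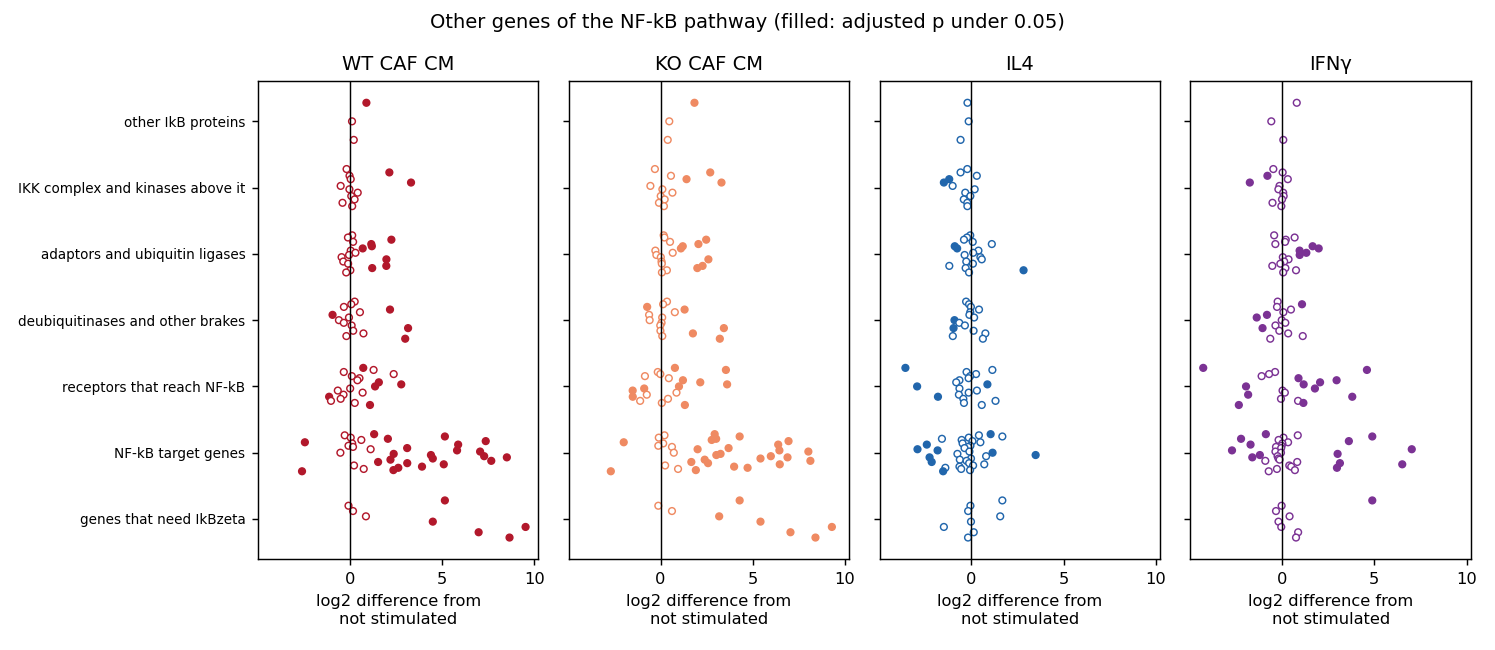
Log2 difference from not stimulated macrophages of every measured gene of 7 lists of the NF-κB pathway (1 point per gene) under each of the 4 stimuli. Filled points passed an adjusted p of 0.05. In WT and KO CAF CM 21 and 23 of the 33 target genes rose, and the points furthest to the right are those of Lcn2, at 9.54 and 9.29.

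Genes with the most similar profiles were sought over the 5 condition means, centred within each gene, by Euclidean distance, for each member whose means spanned at least 1 log2 unit. Nearest to Nfkbia were Ebi3, a cytokine subunit gene (distance 0.23), Zfp821 (0.45) and Traf1 (0.47), and nearest to Bcl3 were Cd302 (0.28), Dusp16 (0.41) and Lpcat2 (0.56). For Nfkbiz, Gpr84, a receptor for medium-chain fatty acids, was nearest at 1.17, followed by Pilrb2 (1.67) and Cpd (2.04). The distance is not scaled and tends to grow with a gene's span, which was widest for Nfkbiz at 8.14 log2 units. Distances of different members are therefore not compared. Tnfaip3 lay nearest to Rtn2 (0.29), Abracl (0.31) and Psma6 (0.32), Nfkbie to Pbxip1 (0.33), Lrmda (0.40) and Bnip3 (0.41), and Nfkb2 to Kremen1 (0.26), Acp2 (0.27) and Gas2 (0.32). For Relb they were 6720489N17Rik (0.13), Fdps (0.16) and Tnfaip2 (0.16), and for Rel Arih1 (0.14), Armc2 (0.18) and Slc39a6 (0.20). With 5 means per gene these likenesses are a description.

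The arrays of a condition correlated at 0.9936 to 0.9952 over all probe sets, and array medians lay between 5.57 and 5.71. The mean log2 signal of the macrophage markers (8 of 10 measured) was high in every array but not level. It was 14.65 to 14.81 in WT CAF CM, 14.08 to 14.26 in KO CAF CM and 14.29 to 14.31 in not stimulated macrophages. In IL4 it was 13.34 to 13.46 and in IFNγ 13.38 to 13.55. These means include Cd14, also listed among the receptors above, with differences of -3.58 in IL4 and -4.28 in IFNγ from not stimulated macrophages. Cd163, 1 of the 8, was not high, at 3.62 to 5.99 over the arrays and mostly below the array medians. Of the 8, 3 were higher and 0 lower in WT CAF CM, 2 and 1 in KO CAF CM, 0 and 3 in IL4, and 1 and 2 in IFNγ, and 2 were higher and 0 lower in WT than in KO CAF CM (median difference 0.41). Fibroblast markers (9 of 10) lay at 4.39 to 4.69, with 0 of 9 called in either CAF medium. Neutrophil markers (9 of 10) did not move one way: their mean signal was 6.38 to 6.85 in WT CAF CM, 6.09 to 6.33 in KO CAF CM and 5.76 to 5.92 in not stimulated macrophages, with 3 higher and 0 lower in WT CAF CM (median difference 0.24) and 2 higher and 2 lower in KO CAF CM (median -0.06). Mmp8 rose in WT CAF CM (1.58) and was lower in KO CAF CM (-1.15). S100a8 was 10.23 and 12.88 in WT CAF CM, 12.18 and 11.35 in KO CAF CM and 7.76 and 6.60 in not stimulated macrophages, whereas the granule genes Elane and Mpo stayed at 4.39 to 5.43 in all arrays, below every array's median. The dendritic cell markers (8 of 8) moved with IFNγ, at 6.26 to 6.27 against 4.55 to 4.56 in not stimulated macrophages, with 3 of 8 higher. Clec9a reached 13.45 and 12.99 in IFNγ against 4.41 and 4.20, while Flt3 and Zbtb46 stayed at 3.36 to 3.96 in all arrays. The part of these marker shifts in the results was not tested.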

How the data were processed

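RNA of BMDMΦs was labelled with the GeneChip WT PLUS kit and hybridised to Clariom S arrays, 2 for each of 5 conditions. The authors processed the arrays with RMA and deposited log2 signals with 2 decimals per probe set, and their notes name RMA and limma without versions, while the methods name the Transcriptome Analysis Console for the array comparisons. RMA sets a common distribution over arrays, so a change shared by all genes cannot be seen, and without detection calls a silent gene cannot be told from a low one. The number of arrays limits the precision. The deposited values were used as they are, with 0 columns left out.

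All 10 arrays entered 1 limma model with 5 condition means (limma 3.58.1, R 4.3.3, with 5 residual and 6.43 prior degrees of freedom). For each of 10 comparisons the Benjamini-Hochberg method was applied across 22206 probe sets, with a threshold of 0.05. Probe sets were named by the platform's annotation (19572 with 1 symbol, 2634 with none). The test was tried on simulated data. Alternatives were normalization, a filter on dim probe sets, moderation, array weights, 2-group fits, the methods' t-test, a replicate block and leaving out each array. Motifs were searched with Python 3.11.15 and figures drawn with matplotlib 3.10.9.

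The members and gene lists were chosen with earlier results of these data known. All members are named. From each list, up to 3 called genes per comparison with the largest absolute difference and the same sign in both replicates are named, and the 3 nearest profiles for each member spanning at least 1 log2 unit. Other named genes were chosen after their values were seen.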

Additional observations from a re-analysis of the deposited data

How the results depend on the processing

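With 2 arrays per condition, leaving out 1 array leaves a condition whose lone array is assumed to vary like the others. The number of called members then ranged from 4 to 7 in WT CAF CM against not stimulated macrophages (6 with all arrays), 5 to 7 in KO CAF CM (6), 1 to 3 in IL4 (3), 0 to 3 in IFNγ (1) and 0 to 1 in WT against KO CAF CM (1), from 6 to 8 and 7 to 8 in WT and KO CAF CM against IL4, 4 to 7 and 5 to 7 in WT and KO CAF CM against IFNγ, and 2 to 3 in IL4 against IFNγ. Calls over all probe sets fell in the same fits, to as few as 4.6% in WT CAF CM (without WT CAF CM replicate 2), 9.02% in KO CAF CM, 1.88% in IL4 and 7.39% in IFNγ (each without not stimulated replicate 1), 0.639% between the CAF media (without KO CAF CM replicate 2) and 7.03% to 10.5% in the other 5 comparisons. Requiring at least 2-fold left 0 members in IFNγ. The methods' t-test, which they name for other experiments and not for the arrays, was run on the first 5 comparisons, each alone. In the order just given, it called 4, 5, 3, 1 and 1 members at an unadjusted p under 0.05. At that threshold it called 2970, 3591, 2279, 3632 and 1554 of all probe sets. Against backgrounds of this size, 1 called member in IFNγ or between the CAF media is not read as a result. After Benjamini-Hochberg adjustment it called 0 members in each comparison, and only 4, 13, 2, 13 and 7 of all probe sets. Probe sets called between the CAF media numbered 302 with all arrays in the fit and 104 with only these 4, and KO CAF CM calls numbered 3292, of which 2067 were at least 2-fold.

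The differences that turned sign were small and not called. Rela in WT CAF CM was 0.03 and became -0.009 after quantile normalization. With 1 array left out, this Rela difference ranged from -0.11 to 0.17, that of Rel in KO CAF CM from -0.22 to 0.13, of Tnfaip3 in IL4 from -0.10 to 0.45, of Nfkbie in IFNγ from -0.19 to 0.43, of Bcl3 in IFNγ from -0.24 to 0.26 and of Relb between WT and KO CAF CM from -0.58 to 0.40. Relb passed the threshold in WT CAF CM without either KO CAF CM array (0.71, adjusted p 0.05 after rounding) and in KO CAF CM after quantile normalization (0.84, adjusted p 0.048).

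The titles give the arrays a number, 1 of each per condition, and the labels do not say what it marks. Same-numbered arrays deviated from their condition means with correlations of -0.05 to 0.19 over 10 pairs of conditions, 3 of them over 0.1. The main model took the arrays to share only a number, although 9 of the 10 correlations were positive. Whether same-numbered arrays share an animal or a batch cannot be decided from correlations over all probe sets. By these deviations, each array was nearest to a same-numbered array of another condition. Deviations within a condition mirror each other, so that nearness follows from the same correlations and adds no separate evidence. With the number as a replicate block, 6 members were called in WT CAF CM, 6 in KO CAF CM and 3 in IL4. In IFNγ 1 was called and between the CAF media 1, and all these counts were those found without the block. More of all probe sets were called with it: 2092 in WT CAF CM (1900 without), 3431 in KO CAF CM (3292) and 1100 in IL4 (898). In IFNγ they numbered 2823 (2679 without) and between the CAF media 406 (302).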

Other observations

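The 3 subunits of the linear ubiquitin ligase, which builds the chains that recruit the IKK complex, were higher in IFNγ than in not stimulated macrophages. Rnf31 was 11.53 and 11.87 in IFNγ and 10.38 and 10.40 in not stimulated macrophages (difference 1.31, adjusted p 0.0015). Rbck1 was 10.09 and 9.84 in IFNγ and 9.15 and 8.89 in not stimulated macrophages (difference 0.94, adjusted p 0.019), and Sharpin was 12.94 and 12.71 in IFNγ and 12.18 and 11.57 in not stimulated macrophages (difference 0.95, adjusted p 0.022). Otulin, a deubiquitinase that takes these chains apart, was 9.31 and 9.40 in IFNγ and 10.65 and 10.82 in not stimulated macrophages (difference -1.38, adjusted p 0.0026). Another deubiquitinase gene, Cyld, went the other way and was higher in IFNγ (difference 1.08, adjusted p 0.0031). The calls of Rbck1 and Sharpin were lost without either IFNγ array (adjusted p 0.051 to 0.15) or not stimulated replicate 2 (adjusted p 0.13 for Rbck1 and 0.19 for Sharpin). Neither gene passed in WT CAF CM, KO CAF CM or IL4 against not stimulated macrophages. Rbck1 and Sharpin were singled out after their values were seen.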
